A study of Caenorhabditis elegans with 18 samples.

Results

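Transcripts of the wild type strain N2 of the nematode Caenorhabditis elegans were compared between embryos and first-stage (L1) larvae. The comparison rests on 6 of the 18 arrays of the study, 3 of embryos and 3 of L1 larvae, chosen by their titles, and on all 22548 probe sets other than the array's own controls. The remaining arrays hold N2 fourth-stage (L4) larvae and embryos, L1 and L4 larvae of lin-35(n745), with 3 arrays in each of the 6 groups. N2 is the laboratory wild type and carries no engineered allele, while lin-35(n745) carries a mutation in the single worm relative of the retinoblastoma gene and serves below as a separate run of the same developmental step. All worms were kept at 20 °C on plates of agar seeded with OP50 bacteria, and the 3 samples of each group came from animals grown and collected independently. The larvae were synchronized hermaphrodites. The sources used here give neither the age of the embryos nor whether the L1 larvae had fed. RNA came from whole animals, so fewer cells of a type and less RNA per cell cannot be told apart in any result below.

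A worm embryo starts with transcripts loaded by the mother, which guide the first cell divisions and set aside the germ line. It then switches on its own genes, passes through rapid divisions and fate decisions, forms muscle, gut, pharynx and nervous system, and secretes the cuticle of the first larva before it hatches. The L1 larva feeds, senses and moves with nearly all of its embryonic cells in place, holds only a pair of germline precursors, and divides little until development goes on.

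Levels are the authors' RMA values, read as log2, and a change is the mean of the 3 L1 arrays minus the mean of the 3 embryo arrays, given ± SE. RMA gives no detection call, so a level near 3 to 4 cannot be told from background, and a change to or from such a level is a lower bound of its size. A gene is represented by 1 probe set, which gave 17118 genes, and is said to have risen or fallen where limma's adjusted p over all probe sets was under 0.05. By that rule 75.1% of all genes changed (74.4% of probe sets): 42.2% rose (7220) and 32.9% fell (5637). The arrays of both stages did not overlap for 78.4%. With a change of at least 2-fold as a further condition, 11.6% rose (1986) and 16.7% fell (2854), and these shares are the background for every gene group below. The median change of all genes was 0.15, or 0.27 with every array centred at its own median. Among the 4280 dimmest genes 51.3% rose but 1.1% rose at least 2-fold. The 99 genes that rose and the 158 genes that fell at least 16-fold lie far outside this drift.

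**Figure D1:**
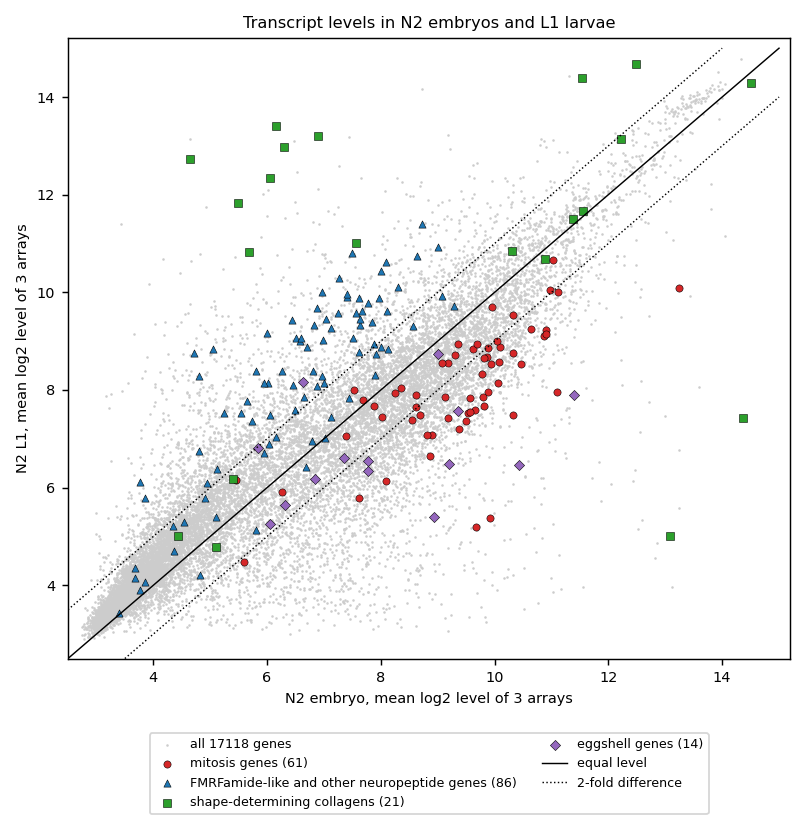
Mean log2 level of 17118 genes in N2 embryos (horizontal axis) and N2 L1 larvae (vertical axis), 3 arrays each; the solid line marks equal levels and the dotted lines a 2-fold difference. Of the 86 neuropeptide genes, 78 rose and lie above the line, and of the 61 mitosis genes 57 fell and lie below it.

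The arrays of a stage resembled each other closely, with correlations over probe sets from 0.9948 to 0.9966 within a stage against 0.8669 to 0.8767 between stages. Defining markers went with the labels: of 9 embryo markers 7 fell, and the log2 of their summed level was 12.75 to 13.01 on the embryo arrays and 8.87 to 9.36 on the L1 arrays. The other 2, med-1 and tbx-35, which specify endoderm and mesoderm in the early embryo, were near background at both stages. Of 14 markers of larval tissues 9 rose. The pan-neuronal gene unc-119 (-2.25 ± 0.14) and the gut regulator elt-2 (-0.45 ± 0.09) fell, although elt-2 was no longer called after quantile normalization, with a change of -0.11 and adjusted p = 0.31. Of 12 measured markers of later stages or mothers (yolk, sperm and the adult collagen col-19), 11 were higher at L1 than in embryos, with log2 of the sum from 8.48 to 8.59 in embryos, 9.67 to 10.9 at L1 and 14.1 to 14.16 at L4.

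L1 replicate 1 stood apart in these later-stage transcripts. It was the highest of the 3 L1 arrays for 5 of 5 yolk genes, with a median excess of 1.78 over the other arrays. The same held for 12 of 14 eggshell genes (0.48) and 35 of 43 genes of the adult yolk and sperm list (0.30). Over all genes the median was -0.0040. It was the highest for 9 of 38 DNA replication genes, 21 of 66 heat shock genes and 63 of 128 col collagens. These sets were chosen after the values were seen. Of the adult list 67.4% stood on probe sets that share probes with similar sequences, so its genes are not all separate readings. The vitellogenin gene vit-4, which encodes a yolk protein made by the adult gut, read 8.77, 6.06 and 6.92 on the L1 arrays and 4.72, 4.94 and 4.80 on the embryo arrays. All L1 arrays lay above all embryo arrays, and the change was 2.43 ± 0.40, or 1.67 without L1 replicate 1. Other vit-4 probe sets rose by 2.44 and 0.83. Embryo replicate 1 differed in several spiked hybridization controls. BioDn-3 read 10.23 there against 12.21 to 12.67 on the other 5 arrays, and BioDn-5 8.71 against 10.08 to 10.67. In the other direction, BioC-3 read 6.72 against 5.11 to 6.10 and BioB-M 6.50 against 5.23 to 6.19. Without embryo replicate 1, 8752 probe sets rose and 7433 fell (9207 and 7569 with it). The part of these arrays in other results was not tested beyond the values without them.

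Maternal transcripts were mostly lower at L1. Of 42 measured genes of the germ plasm and of the transition from oocyte to embryo, 36 fell and 4 rose, 28 of them fell at least 2-fold, and the median change was -1.77. The zinc finger gene pos-1, a translational regulator of posterior fates in the early embryo, read 12.19, 12.02 and 11.93 on the embryo arrays and 7.36, 5.15 and 5.74 on the L1 arrays. The change was -5.97 ± 0.31 (adjusted p = 8.1e-13), and -6.60 without L1 replicate 1, on which it was highest. The related regulators oma-1 (-3.40 ± 0.14), oma-2 (-4.04 ± 0.17), mex-5 (-3.98 ± 0.16) and pie-1 (-2.44 ± 0.10) and the germline gene nos-2 (-4.35 ± 0.14) fell as well, with no overlap between stages. In N2 L4 larvae, whose germ line is growing, mex-5 stood at 9.06 ± 0.07 and oma-2 at 8.29 ± 0.12 (SD, n = 3), above all L1 arrays.

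The 4 members that rose were the polarity kinase gene par-1 (0.76 ± 0.22), the RNA granule genes car-1 (0.76 ± 0.18) and atx-2 (0.77 ± 0.19) and the poly(A) polymerase gene gld-2 (0.41 ± 0.17, adjusted p = 0.041). For gld-2 the call ended without embryo replicate 3, L1 replicate 2 or L1 replicate 3, with changes of 0.24, 0.31 and 0.44. Its rise was 0.75 after quantile normalization (limma adjusted p = 0.0014) and 0.43 on the mean of its probe sets (adjusted p = 0.00086). Other gld-2 probe sets changed by 0.25 to 0.80.

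Eggshell genes followed the same direction: 12 of 14 fell and 2 rose, with a median of -0.998, or -1.13 without L1 replicate 1. The chondroitin proteoglycan gene cpg-2, whose product lines the shell, read 10.66, 10.23 and 10.40 on the embryo arrays and 7.50, 5.68 and 6.21 on the L1 arrays. Its L1 values spread over more than a log2 unit, highest on replicate 1, and did not reach the embryo values (change -3.97 ± 0.27). The change was -3.51 ± 0.16 for its relative cpg-1, -3.55 ± 0.17 for the oocyte cortex gene egg-3, and -2.73 ± 0.13 for gna-2, which supplies the sugar precursor of chitin. By contrast perm-2 (0.98 ± 0.17) and perm-4 (1.54 ± 0.15), genes of the permeability barrier of the shell, were higher at L1 on all arrays. The other perm-4 probe sets rose less, by 1.19, 0.30 and 0.26.

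Zygotic regulators of early development mostly fell. Of 31 genes of early endoderm and mesoderm, 24 fell, 19 at least 2-fold, and 1 rose (2 after quantile normalization), with a median of -1.67. The transcript of pes-10, a gene switched on at the onset of zygotic transcription, read 8.32, 7.97 and 8.70 on the embryo arrays and 3.54, 3.30 and 3.09 on the L1 arrays. It was near background on all L1 arrays (log2 change -5.02 ± 0.16, adjusted p = 1.6e-16, a lower bound of the fall). The T-box gene tbx-9 (-4.12 ± 0.12), the bHLH gene hnd-1 of early mesoderm (-4.07 ± 0.17) and sdz-28, one of a group of genes that depend on the maternal factor SKN-1 (-5.85 ± 0.20), fell in the same way. The endoderm selectors end-1 and end-3 moved little, with 7.63, 7.71 and 7.73 on the embryo arrays and 7.26, 7.09 and 7.08 on the L1 arrays for end-1. Both fell slightly (-0.55 ± 0.14 and -0.53 ± 0.14), and for end-1 the call ended after quantile normalization (change -0.23, adjusted p = 0.21). The member that rose was sdz-24, also of the SKN-1 group, at 6.94, 7.0 and 7.10 on the embryo arrays and 10.76, 10.80 and 10.80 on the L1 arrays. It was still at 9.74 ± 0.01 in L4 larvae.

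Of 40 fate factors of epidermis and nervous system, 35 fell and 0 rose by limma at adjusted p under 0.05 (1 rose after centring and 2 after quantile normalization), 25 fell at least 2-fold, and the median was -1.24. The homeobox genes ceh-36, which specifies chemosensory neurons, and ceh-43, which acts in anterior head development, read 9.63, 9.42 and 9.20 and 10.35, 10.21 and 10.42 on the embryo arrays and 4.89, 4.91 and 4.84 and 5.88, 6.31 and 6.06 on the L1 arrays. Neither overlapped between stages. The proneural gene hlh-14 changed by -3.29 ± 0.10 and the epidermal GATA factor gene elt-1 by -2.11 ± 0.13. Among all genes the fall of ces-2, a bZIP gene that controls the death of a neuron's sister cell, was one of the 15 deepest as measured, from 10.88, 11.11 and 11.11 to 3.72, 3.95 and 3.90, and that of dsl-6, a gene of the Notch ligand family, another, from 10.69, 11.20 and 11.101 to 4.19, 3.98 and 4.27.

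Genes that shape the embryo by adhesion and junctions changed less evenly: 24 of 38 fell and 3 rose, with a median of -0.72, and 5 rose after centring, after quantile normalization or on the mean of each gene's probe sets. The ephrin gene efn-4 (-1.73 ± 0.12) and the basolateral polarity gene let-413 (-1.27 ± 0.13) fell. The genes vab-19 (0.79 ± 0.14) and mup-4 (1.14 ± 0.18), which tie muscle to cuticle through the epidermis, rose with pat-12 (0.42 ± 0.11). A second mup-4 probe set changed by 0.37 without passing the test (limma adjusted p = 0.13). In the small list of embryonic apical matrix genes 5 of 13 fell and 4 rose, or 2 and 4 after quantile normalization, and 2 rose without L1 replicate 3. There dyf-7, which anchors growing sensory dendrites, had the largest change (-3.66 ± 0.12), followed by its partner dex-1 (-1.55 ± 0.11).

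The machinery of cell division was lower at L1. Of 38 DNA replication genes 37 fell and 0 rose by limma at adjusted p under 0.05, and 24 fell at least 2-fold (median -1.22). Of 61 mitosis genes 57 fell, 40 at least 2-fold, and 2 rose (median -1.28). The helicase subunit gene mcm-7 read 12.62, 12.47 and 12.598 on the embryo arrays and 9.95, 9.98 and 9.77 on the L1 arrays, a change of -2.67 ± 0.11, and that of its partner mcm-2 was smaller at -0.70 ± 0.10. For the B-type cyclins, which drive entry into mitosis, the change was -3.16 ± 0.10 for cyb-3 and -3.14 ± 0.13 for cyb-1. The paralogs cyb-2.1 (-4.48 ± 0.21) and cyb-2.2 (-4.56 ± 0.19) are close in sequence, and their probe sets may read both. Their kinase partner cdk-1 read 10.38, 10.28 and 10.33 on the embryo arrays and 9.54, 9.45 and 9.58 on the L1 arrays. It fell by 0.80 ± 0.10 log2 units.

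The origin recognition gene orc-5 (-2.24 ± 0.10), the geminin gene gmn-1 (-2.35 ± 0.11) and dut-1, which keeps uracil out of DNA (-2.2 ± 0.10), fell at least 2-fold, as did zen-4 (-2.15 ± 0.14) and cyk-4 (-1.74 ± 0.11), partners in the central spindle. The 2 mitosis genes that rose were the doublecortin-like gene zyg-8 (0.71 ± 0.19) and the Ran GTPase activating gene ran-2 (0.46 ± 0.12), which was not called on the mean of its probe sets (0.20, adjusted p = 0.072). The cell cycle inhibitor cki-1 also fell, from 11.45, 11.35 and 11.45 to 9.33, 9.08 and 9.31, in the same direction as the genes of division.

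Histone transcripts fell in 28 of 36 cases and rose in 5, with a median of -0.84. Of 82 histone names 36 were measured, and 52.8% of these on probe sets that share probes with similar sequences. The cases are therefore not all separate readings. Array labelling favours polyadenylated RNA, which most histone transcripts of dividing cells lack, so these levels need not follow the total. The deepest falls were those of 3 linker histone genes, with 14.03, 14.05 and 14.07 on the embryo arrays and 11.17, 11.09 and 11.22 on the L1 arrays for hil-7. The change was -2.89 ± 0.12 for hil-7, -2.12 ± 0.11 for his-24 and -2.07 ± 0.11 for hil-2, and hil-7 was lower again in L4 larvae (8.07 ± 0.21). A second his-24 probe set changed by -0.79, and the other hil-7 probe sets by -2.43 and -4.04. The genes that rose were his-35, his-37 and his-70, by 0.62 ± 0.11, 0.43 ± 0.11 and 0.84 ± 0.14, with the linker histone gene hil-1 (0.40 ± 0.16) and his-69 (0.30, outside the naming rule and chosen after its value was seen). Without L1 replicate 1 the rises numbered 3, and hil-1 was not called there, without 2 other single arrays or after quantile normalization (0.30).

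Of 15 genes of dosage compensation and sex determination, 11 fell and 1 rose (median -1.04), or 2 after quantile normalization. The nuclear receptor gene sex-1, which counts X chromosomes in the early embryo, read 11.101, 11.097 and 10.93 on the embryo arrays and 7.36, 7.27 and 7.22 on the L1 arrays. It changed by -3.76 ± 0.09, and the dosage compensation genes sdc-2 (-1.87 ± 0.11), sdc-1 (-1.78 ± 0.14) and dpy-27 (-1.6 ± 0.13), whose products act on the X chromosomes, fell as well. A second dpy-27 probe set read a change of 0.03. The gene that rose, tra-1 (1.46 ± 0.15), encodes the last regulator of the sex determination pathway, and its other 3 probe sets named here rose too, by 0.56 to 2.66.

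Of 24 genes of apoptosis and engulfment 14 fell and 4 rose, with a median of -0.61. The BH3-only trigger egl-1 (-2.81 ± 0.18), the membrane gene ced-8 (-3.36 ± 0.12), ttr-52, which bridges dying cells to their engulfers (-2.58 ± 0.11), and the cell death nuclease gene crn-4 (-2.40 ± 0.14) fell. Genes that rose were ced-13 (0.44 ± 0.11), which was near background at both stages and not called after quantile normalization (0.22), the lysosomal nuclease nuc-1 (0.73 ± 0.10) and the mitochondrial genes wah-1 (1.00 ± 0.10) and cps-6 (1.55 ± 0.15).

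The heterochronic pathway, which times larval fates, moved both ways. Of 13 genes 6 fell and 5 rose, and 9 of these 11 changed at least 2-fold. The zinc finger gene hbl-1, an early timer, read 12.66, 12.70 and 12.39 on the embryo arrays and 9.87, 10.16 and 10.14 on the L1 arrays. The RNA-binding gene lin-28 read 9.55, 9.38 and 9.16 on the embryo arrays and 7.60, 7.83 and 7.77 on the L1 arrays. Both were high in embryos and fell by L1 (-2.53 ± 0.12 and -1.63 ± 0.14), and both were lower still at L4 (8.13 ± 0.09 and 6.42 ± 0.07). The lin-14 probe set was near background at both stages (4.49, 4.50 and 4.65 and 4.14, 4.16 and 3.81), so its fall (-0.51 ± 0.13) says little of that gene.

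On the rising side lin-41, a later timer and a target of the let-7 microRNA, read 6.83, 6.69 and 6.83 on the embryo arrays and 9.04, 9.45 and 9.14 on the L1 arrays. It rose by 2.42 ± 0.12, and stood between both stages at L4 (7.37 ± 0.07). The steroid receptor gene daf-12 (2.70 ± 0.15), the period-like gene lin-42 (2.59 ± 0.22) and the adult fate gene lin-29 (1.65 ± 0.18) rose too, as did lin-46 (1.41), which lies outside the naming rule and was chosen after its value was seen. Rises of the 3 daf-12 probe sets ran from 0.49 to 2.70, and a second lin-42 probe set rose by 0.88. L4 larvae held 8.39 ± 0.08 of daf-12, below the L1 arrays. The plot of single arrays shows lin-28 and lin-41 side by side.

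**Figure D2:**
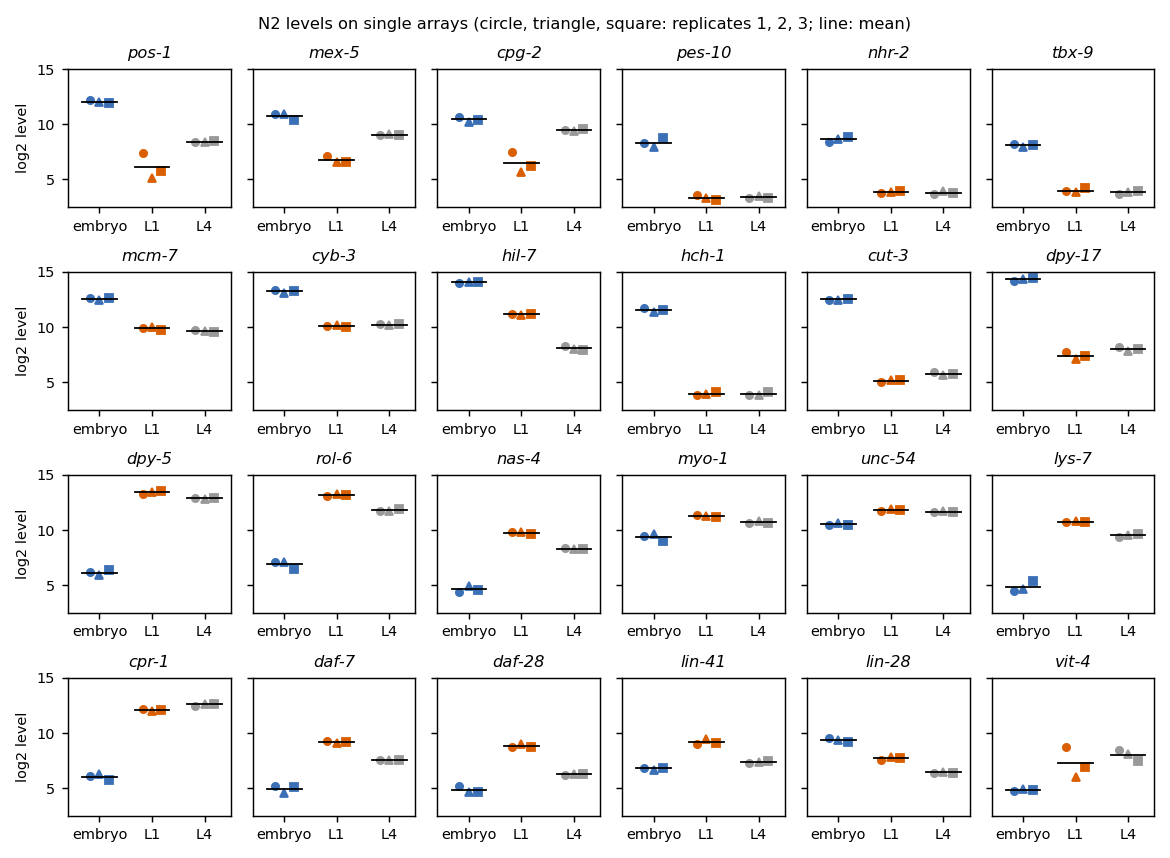
Log2 level of 24 genes on each N2 array at the embryo, L1 and L4 stages (symbols mark replicates 1 to 3, the line their mean). For vit-4, pos-1 and cpg-2 the circle of L1 replicate 1 lies above the other L1 arrays, while hch-1, cut-3 and pes-10 were high in embryos and low at both larval stages.

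The cuticle carried many of the deepest changes, in both directions. Collagens of the col family rose in 94 of 128 cases, 45 of them at least 2-fold, and 6 fell (median 0.77). Of 21 collagens named for the body shape of their mutants, 14 rose, 10 at least 2-fold, and 3 fell (median 0.91). Cuticlin genes, which encode cross-linked proteins with a zona pellucida domain, went the other way: 21 of 34 fell, 12 at least 2-fold, and 5 rose (median -0.56), or 3 without L1 replicate 2.

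Among the collagens that rose, several went from low to high levels. The rol-6 transcript read 7.13, 7.10 and 6.48 on the embryo arrays and 13.09, 13.27 and 13.22 on the L1 arrays. The rol-8 transcript read 6.81, 6.57 and 5.49 on the embryo arrays and 12.91, 12.97 and 13.06 on the L1 arrays. Both encode collagens whose mutants roll, both rose (6.29 ± 0.17 and 6.69 ± 0.25), and rol-6 is counted both here and in the adult list below. The dumpy gene dpy-5 (7.26 ± 0.11), the squat genes sqt-1 (8.09 ± 0.15) and sqt-2 (6.29 ± 0.12), dpy-8 (6.33 ± 0.13), col-41 (6.62 ± 0.15), col-73 (5.44 ± 0.10) and col-90 (8.49 ± 0.15) behaved alike. All stayed high in L4 larvae, where dpy-5 stood at 12.88 ± 0.02 and col-90 at 11.67 ± 0.10.

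The dumpy collagens dpy-17 and dpy-14 did the reverse. For dpy-17 the arrays read 14.20, 14.41 and 14.47 on the embryo arrays and 7.74, 7.12 and 7.39 on the L1 arrays. For dpy-14 they read 13.16, 12.98 and 13.12 on the embryo arrays and 4.84, 5.02 and 5.19 on the L1 arrays, and for col-165 13.14, 13.42 and 13.15 on the embryo arrays and 6.98, 6.77 and 6.56 on the L1 arrays. All 3 were high on every embryo array and low on every L1 array, lower by 123.-fold, 268.-fold and 88.7-fold. The same held for col-121 (-4.68 ± 0.15) and col-74 (-8.27 ± 0.11), and at L4 dpy-14 remained at 4.89 ± 0.13. The shape collagen sqt-3 read 14.42, 14.63 and 14.48 on the embryo arrays and 14.25, 14.34 and 14.28 on the L1 arrays. Its small fall (-0.22 ± 0.09, adjusted p = 0.039) was not called after centring (-0.10) or without any of 4 single arrays (-0.16 to -0.24). Nor was it called by limma on the 6 arrays alone (adjusted p = 0.066). The change was -0.52 after quantile normalization (adjusted p = 2.2e-05) and -0.33 on the mean of its probe sets (adjusted p = 0.0019). A second sqt-3 probe set changed by -0.45. The dpy-7 transcript, at 11.40, 11.23 and 11.50 in embryos and 11.52, 11.54 and 11.45 at L1, did not pass the test (0.13 ± 0.11, adjusted p = 0.29), though it did after centring (0.25, adjusted p = 0.037).

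Among the cuticlins cut-3, which is needed for the lateral ridges of the L1 cuticle, read 12.49, 12.48 and 12.57 on the embryo arrays and 5.01, 5.22 and 5.24 on the L1 arrays. It fell 164.-fold, cut-5 (-5.33 ± 0.15) and cutl-2 (-4.33 ± 0.17) fell as well, and cut-4 (1.78 ± 0.15) and cutl-7 (0.88 ± 0.16) rose. The adult collagen col-19 read 3.86, 3.69 and 3.64 in embryos and 4.40, 4.06 and 4.19 at L1, near background at both.

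**Figure D3:**
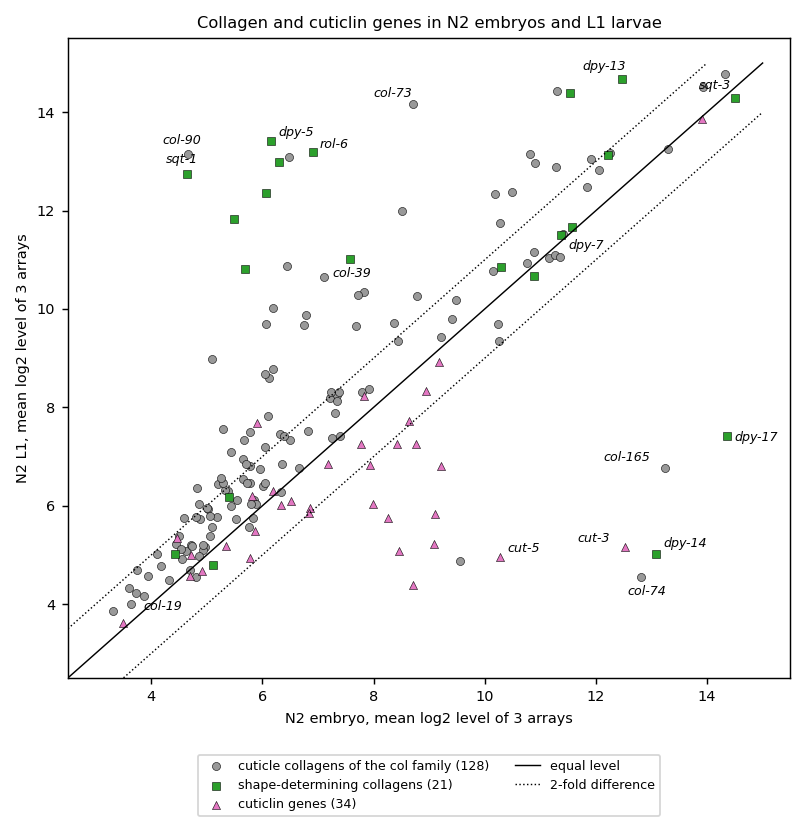
Mean log2 level of 128 col family collagens, 21 shape-determining collagens and 34 cuticlin genes in N2 embryos and N2 L1 larvae, 3 arrays each; lines mark equal levels and a 2-fold difference. Collagens such as sqt-1, col-90 and dpy-5 lie at the upper left, and dpy-14, dpy-17, col-74, col-165, cut-3 and cut-5 at the lower right.

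Astacin metalloproteases, which act on cuticle and other matrices, mostly rose, and genes of molting did so less evenly. Of 36 astacin metalloproteases 29 rose, 17 at least 2-fold, and 2 fell (median 0.87), with 80.6% up against 42.2% of all genes. The deepest fall belonged to hch-1, the protease that opens the eggshell at hatching, with 11.77, 11.37 and 11.55 on the embryo arrays and 3.82, 3.93 and 4.16 on the L1 arrays. The L1 values lay near background, so the change of -7.59 ± 0.13 is a lower bound of the fall, and L4 larvae read 3.94 ± 0.12. Another astacin gene, nas-4, read 4.42, 4.97 and 4.57 on the embryo arrays and 9.79, 9.80 and 9.68 on the L1 arrays, a rise of 5.11 ± 0.15. The molting protease gene nas-37 (3.99 ± 0.16) rose with it, as did nas-15 (3.49 ± 0.14) and nas-6 (2.69 ± 0.13), which acts on the pharyngeal grinder.

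Of 38 molting and cuticle processing genes 21 rose and 4 fell (median 0.36), or 55.3% and 10.5%, against 42.2% and 32.9% of all genes. At least 2-fold, 18.4% rose, against 11.6% of all genes. The peroxidase gene mlt-7 (2.39 ± 0.13) and the hedgehog-related gene qua-1 (2.59 ± 0.11), both needed for molting, were among the 4 with the largest rises, beside ptr-8 (3.19 ± 0.17) and nas-37, and the prolyl hydroxylase subunit gene phy-2 fell (-0.64 ± 0.11). Hedgehog-related and patched-related genes, many of which act in the epidermis, rose in 42 of 80 cases and fell in 14, 9 after quantile normalization (median 0.33). Rises of ptr-8 (3.19 ± 0.17), grd-14 (2.79 ± 0.29) and grd-10 (2.42 ± 0.15) stood against falls of grl-11 (-3.90 ± 0.11) and ptr-25 (-1.92 ± 0.14). Transthyretin-like genes rose in 25 of 40 cases and fell in 10 (median 0.69), with ttr-26 (3.93 ± 0.14) and ttr-27 (3.84 ± 0.10) at the top and ttr-50, from 13.21, 13.12 and 13.05 to 4.00, 3.78 and 4.10, at the bottom with the lowest measured change of the list (-9.17 ± 0.11) and near background at L1.

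Genes of feeding and digestion mostly rose. Of 48 intestinal genes of digestion and transport 35 rose, 27 at least 2-fold, and 7 fell (median 1.22). The gut protease gene cpr-1 read 6.08, 6.25 and 5.70 on the embryo arrays and 12.17, 12.04 and 12.09 on the L1 arrays. The aspartyl protease gene asp-14 read 6.70, 6.87 and 5.93 on the embryo arrays and 11.82, 11.93 and 11.84 on the L1 arrays. Both went from low to high (6.09 ± 0.12 and 5.37 ± 0.16), and cpr-5 (4.42 ± 0.10) rose likewise. The gut metallothionein gene mtl-2 (3.88 ± 0.14), the acid phosphatase gene pho-11 (6.5 ± 0.14) and far-8, which encodes a binding protein for fatty acids and retinol (5.97 ± 0.21), rose in the same range. The gut esterase ges-1 rose by 0.75 ± 0.14 and the protease gene asp-1 by 0.94 ± 0.08. Among the 7 that fell were the calcium-binding gene gem-4 (-4.02 ± 0.21), the microtubule end gene ebp-2 (-0.99 ± 0.11) and the microvillus gene eps-8 (-0.62 ± 0.10). For eps-8 the other probe sets disagreed, with 1 that rose by 0.47.

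Antimicrobial effectors rose too. Of 39 lysozyme and saposin-like genes 24 rose, 18 at least 2-fold, and 3 fell (median 0.60). The lysozyme gene lys-7, used against bacteria in the gut, read 4.50, 4.62 and 5.35 on the embryo arrays and 10.75, 10.83 and 10.75 on the L1 arrays. The saposin-like gene spp-1 read 6.35, 6.68 and 5.90 on the embryo arrays and 11.55, 11.49 and 11.51 on the L1 arrays. Their rises were 5.95 ± 0.21 and 5.21 ± 0.15, with ilys-5 (5.33 ± 0.34) and spp-8 (4.64 ± 0.13) next to them, though a second spp-1 probe set rose by 1.08. Of 220 C-type lectin genes 145 rose, 50 at least 2-fold, and 12 fell (median 0.46). Many were dim, with a median level of 4.26 in embryos and 4.71 at L1. After quantile normalization 103 rose and 15 fell (median 0.26), so part of the broad rise moved with the scaling. At least 2-fold, 22.7% rose, against 11.6% of all genes. The largest rise was that of clec-1 (5.24 ± 0.17), and the deepest falls those of clec-266 (from 13.09, 13.31 and 13.36 to 5.75, 5.59 and 5.43) and of clec-88 and clec-87 (-6.29 ± 0.21 and -5.54 ± 0.25). For clec-87 the change was -6.02 without L1 replicate 1.

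In the pharynx list 43 of 79 genes rose, 25 at least 2-fold, and 22 fell (median 0.39). The pharyngeal myosin genes myo-1 and myo-2 rose (1.88 ± 0.16 and 1.74 ± 0.16), as did the gland genes phat-6 (3.51 ± 0.12), phat-8 (3.99 ± 0.19) and phat-7 (6.81 ± 0.12). Of the gland family phat-5 fell (-2.0 ± 0.19). The homeobox gene ceh-22, which activates pharyngeal muscle genes in the embryo, read 8.87, 8.88 and 9.14 on the embryo arrays and 6.90, 6.89 and 6.72 on the L1 arrays. It fell by 2.13 ± 0.11 log2 units while myo-2, a target of it, rose.

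Of 47 sarcomere genes of body wall muscle 18 rose and 11 fell (median 0.13, close to that of all genes). Among those that rose, the myosin heavy chain gene unc-54 read 10.42, 10.68 and 10.45 on the embryo arrays and 11.75, 11.94 and 11.86 on the L1 arrays, a rise of 1.33 ± 0.12, and the giant kinase gene unc-89 (1.49 ± 0.13), the calponin-like gene unc-87 (1.42 ± 0.11) and the paramyosin gene unc-15 (0.56 ± 0.14) rose with it. The largest rise was that of the troponin T gene tnt-2 (2.6 ± 0.14). The other myosin heavy chain gene, myo-3, did not pass the test, with 9.53, 9.75 and 9.69 on the embryo arrays and 9.54, 9.73 and 9.7 on the L1 arrays (change -0.00 ± 0.10; 0.29 after quantile normalization). Among those that fell, the integrin-linked kinase gene pat-4 read 10.08, 10.15 and 10.05 on the embryo arrays and 8.47, 8.58 and 8.55 on the L1 arrays, and the changes were -1.56 ± 0.09 for pat-4, -1.38 ± 0.12 for the parvin gene pat-6, -1.25 ± 0.20 for unc-95 and -0.93 ± 0.10 for the PINCH gene unc-97.

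The nervous system was represented by 5 lists that moved in different ways. Neuropeptide genes had the highest median of all 41 lists: 78 of 86 rose, 59 at least 2-fold, and 2 fell (median 1.68). The FMRFamide-like gene flp-17 read 4.74, 5.10 and 4.33 on the embryo arrays and 8.66, 8.65 and 8.97 on the L1 arrays. The gene flp-4 read 4.63, 4.87 and 4.92 on the embryo arrays and 8.24, 8.29 and 8.36 on the L1 arrays. Both rose on all arrays (4.04 ± 0.19 and 3.49 ± 0.11), with nlp-20 (3.78 ± 0.24) and nlp-80 (3.32 ± 0.14) beside them, and the falls of nlp-60 (-0.66 ± 0.17) and nlp-32 (-0.62 ± 0.15) were small. The processing enzymes egl-3, a proprotein convertase, and egl-21, a carboxypeptidase, which trim neuropeptides, rose by 3.06 ± 0.14 and 2.38 ± 0.11. For egl-3 the arrays read 8.75, 8.87 and 8.88 on the embryo arrays and 11.92, 11.89 and 11.87 on the L1 arrays.

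Insulin-like peptide genes mostly rose as well. Of 24 insulin-like genes 20 rose, 13 at least 2-fold, and 2 fell (median 1.04). The insulin gene daf-28, whose product favours growth over dauer arrest, read 5.17, 4.67 and 4.68 on the embryo arrays and 8.76, 9.03 and 8.75 on the L1 arrays. The TGF-beta gene daf-7, which acts in the same decision from a pair of sensory neurons, read 5.16, 4.60 and 5.09 on the embryo arrays and 9.29, 9.08 and 9.16 on the L1 arrays. The rises were 4.01 ± 0.12 and 4.23 ± 0.13, and L4 larvae stood lower (6.27 ± 0.06 and 7.54 ± 0.02). Rises of ins-30 (3.83 ± 0.15), ins-35 (3.41 ± 0.14) and ins-33 (3.27 ± 0.16) stood against falls of ins-2 (from 8.49, 8.61 and 8.43 to 4.40, 4.30 and 4.05) and ins-34 (-2.57 ± 0.13).

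Of 57 genes of synapses and transmitters 29 rose and 19 fell, 11 after quantile normalization, with 5 at least 2-fold in each direction (median 0.27). Their shares, 50.9% up and 33.3% down, were near the 42.2% and 32.9% of all genes. At least 2-fold, 8.8% changed in each direction, below the 11.6% up and 16.7% down of all genes. The choline transporter gene cho-1 rose by 1.64 ± 0.13, and ric-3 (-1.26 ± 0.12), a chaperone of acetylcholine receptors, and ric-19 (-1.06 ± 0.12) fell. In contrast 41 of 59 genes of the sensory cilium fell, 25 at least 2-fold, and 7 rose (median -0.87). The transport gene kap-1 (-2.45 ± 0.13), bbs-5 (-2.87 ± 0.13) of the BBSome and nphp-1 (-2.63 ± 0.13) of the transition zone, all used to build cilia, fell on all arrays. The sensory channel gene osm-9 rose (1.13 ± 0.15), as did the diacetyl receptor gene odr-10, from 4.71, 4.13 and 4.10 to 7.07, 7.13 and 6.80. The list also holds the touch neuron genes mec-12 (0.67 ± 0.13) and mec-18 (1.1 ± 0.11), which act in cells without cilia.

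Chemoreceptor genes, the largest list, were mostly near background. Their median level was 3.63 in embryos and 3.95 at L1, and although 810 of 1276 rose and 27 fell, 30 rose at least 2-fold, or 2.35% against 11.6% of all genes. After quantile normalization 380 rose and 81 fell, so the broad small rise moved with the scaling. Individual members rose clearly, such as srd-53 (from 4.71, 4.55 and 4.47 to 7.14, 6.98 and 6.78), and a few fell, with sru-20 (-2.98 ± 0.10) and str-173 (-3.08 ± 0.14) lowest.

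**Figure D4:**
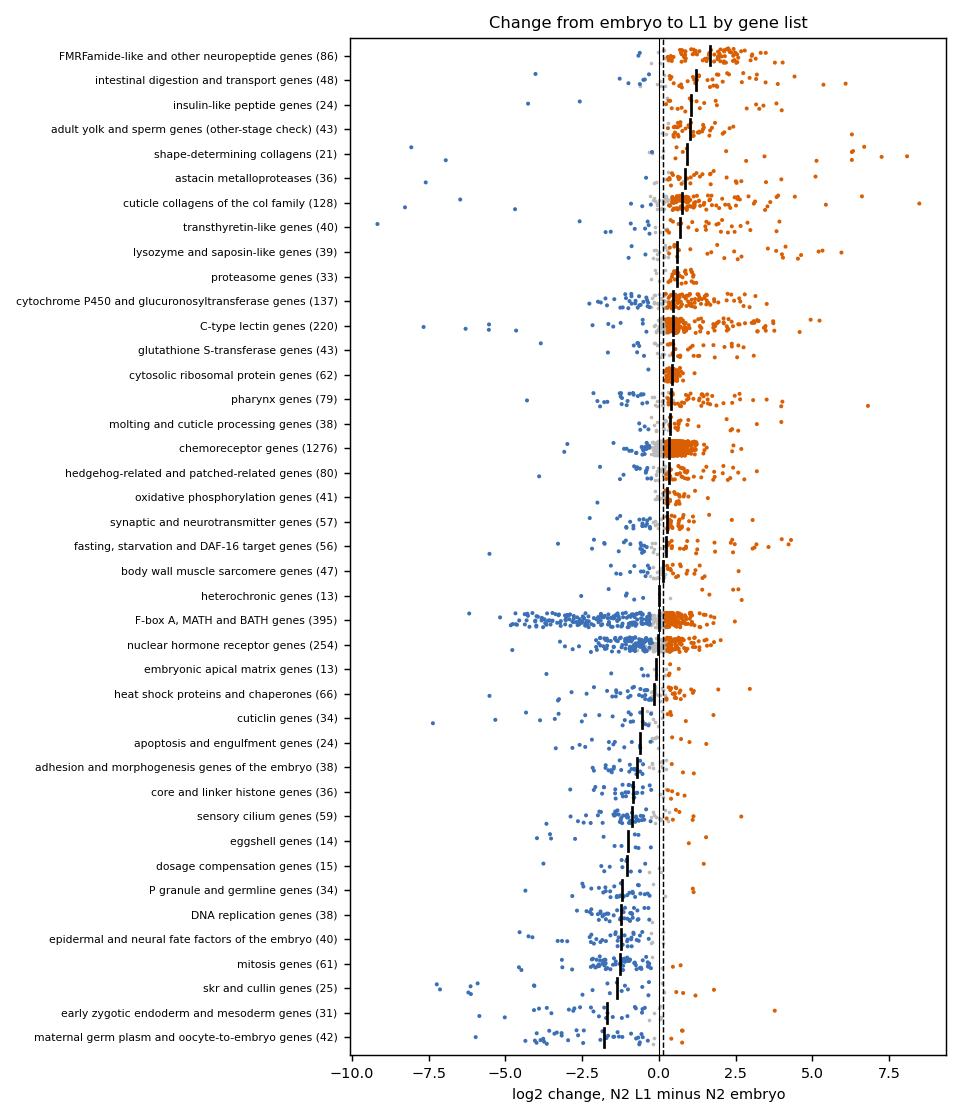
Log2 change from N2 embryo to N2 L1 of each measured gene in 41 lists, ordered by their median (black bar), with the number of measured genes in brackets; orange genes rose, blue genes fell and grey genes did not pass the test, and the dashed line is the median of all genes (0.15). Neuropeptide, intestinal and insulin-like genes lie at the top, and maternal, early zygotic and skr or cullin genes at the bottom.

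Detoxification genes rose more often than not. Of 137 cytochrome P450 and glucuronosyltransferase genes 84 rose and 27 fell (median 0.47), and of 43 glutathione S-transferase genes 26 rose and 8 fell (median 0.46). Rises included ugt-16 (3.52 ± 0.21), ugt-47 (3.15 ± 0.12), gsto-1 (3.09 ± 0.13) and gst-26 (2.76 ± 0.11), and falls gst-19 (-3.84 ± 0.18) and cyp-13B2 (-1.89 ± 0.13). The nuclear hormone receptors, a family much enlarged in nematodes, split into 77 that rose and 95 that fell of 254, with 39 down and 15 up at least 2-fold. The shares were 30.3% up and 37.4% down, against 42.2% and 32.9% of all genes. At least 2-fold, 15.35% fell, near the 16.7% of all genes, and 5.9% rose, against 11.6%. The early embryonic receptor gene nhr-2 read 8.37, 8.63 and 8.86 on the embryo arrays and 3.77, 3.81 and 3.96 on the L1 arrays, a change of -4.77 ± 0.12 to near background on this probe set. Of its other probe sets 2 fell (-5.47 and -3.79), and 1 changed by 0.17 without passing the test. The receptor genes nhr-97 (2.02 ± 0.12), nhr-7 (1.80 ± 0.18) and nhr-6 (1.70 ± 0.14) rose.

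Proteasome genes rose in 28 of 33 cases and fell in 0 by limma at adjusted p under 0.05 (1 when the 6 arrays were fitted alone), with a median of 0.60. The 20S core genes pas-1 (1.12 ± 0.11), pas-2 (1.22 ± 0.11) and pas-7 (1.14 ± 0.12) and the regulatory ATPase gene rpt-6 (1.13 ± 0.11) rose most. Ribosomal protein genes rose in 59 of 62 cases with a median of 0.42, but 15 rose after quantile normalization (median 0.06), so their rise depended on the scaling. The gene rpl-11.1 had the largest of these rises (1.17 ± 0.09). Genes of oxidative phosphorylation rose in 24 of 41 cases and fell in 1, or 3 after quantile normalization (median 0.27), and sdha-1 (1.6 ± 0.26) and nuo-5 (1.18 ± 0.11) led.

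Genes of fasting and of the response to the insulin-regulated factor DAF-16 moved both ways, with 27 of 56 up, 16 at least 2-fold, and 18 down (median 0.23). Their shares, 48.2% up and 32.1% down, were near the 42.2% and 32.9% of all genes. At least 2-fold, 28.6% rose, against 11.6% of all genes. The desaturase gene fat-2 (3.57 ± 0.11) and dod-24 (4.31 ± 0.22) rose. The daf-16 transcript itself read 8.96, 8.65 and 8.76 on the embryo arrays and 8.94, 9.44 and 9.25 on the L1 arrays, with overlapping groups. Its change (0.42 ± 0.16, limma adjusted p = 0.022) was no longer called without any of 4 single arrays (0.30 to 0.41). The change was 0.77 after quantile normalization (adjusted p = 0.00026) and 0.59 on the mean of its probe sets (adjusted p = 0.00026). Its other probe sets changed by 0.24 to 1.35. Of 66 heat shock and chaperone genes 22 rose and 28 fell (median -0.17), or 33.3% and 42.4%, against 42.2% and 32.9% of all genes. At least 2-fold, 7.6% of these genes rose and 19.7% fell, against 11.6% and 16.7% of all genes. The embryonic small heat shock gene sip-1 read 13.65, 13.57 and 13.54 on the embryo arrays and 8.86, 7.17 and 8.18 on the L1 arrays. The stress gene hsp-16.41 read 10.73, 10.71 and 10.71 on the embryo arrays and 8.72, 6.22 and 7.35 on the L1 arrays. Both fell (-5.52 ± 0.33 and -3.28 ± 0.38) but were highest on L1 replicate 1, and without it the changes were -5.91 and -3.93. The mitochondrial chaperone hsp-60 (1.94 ± 0.13), the cytosolic hsp-1 (1.14 ± 0.11) and hsp-17 (2.97 ± 0.11) rose.

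The adaptor genes of SCF ubiquitin ligases held some of the deepest falls. Of 25 skr and cullin genes 19 fell, 16 at least 2-fold, and 4 rose (median -1.37). The Skp1-related gene skr-7 read 10.94, 10.82 and 10.53 on the embryo arrays and 3.56, 3.59 and 3.75 on the L1 arrays. It fell to near background (-7.13 ± 0.12, a lower bound of the fall), beside skr-13 (-7.23 ± 0.14), skr-14 (-6.20 ± 0.13) and skr-9 (-6.13 ± 0.14). The probe sets of skr-13 and skr-9 share probes with similar sequences, so neither can be told fully from its copies. Rises were those of skr-3 (0.79 ± 0.13), skr-4 (1.80 ± 0.22), skr-5 (1.20 ± 0.15) and skr-11 (0.57 ± 0.11). Genes with F-box, MATH or BATH domains, which name targets for such ligases, split: 41.8% of 395 fell, 120 genes at least 2-fold, and 125 rose, 69 after quantile normalization. The falls of fbxc-51, fbxb-66, fbxc-28 and fbxb-84 ranged from -4.76 to -6.18, from embryo levels between 7.73 and 10.73 to L1 levels between 3.02 and 4.53. A second fbxc-51 probe set changed by -1.62.

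In the list of P granule and germline genes 30 of 34 fell, 20 at least 2-fold, and 2 rose (median -1.20). The helicase gene glh-1 rose (1.11 ± 0.13), and so did the germline regulator fbf-2 (1.13 ± 0.15). The P granule gene pgl-1 read 7.98, 7.72 and 7.96 on the embryo arrays and 7.85, 7.61 and 7.60 on the L1 arrays. The stages overlapped and it did not pass the test (-0.20 ± 0.11, adjusted p = 0.11), except without embryo replicate 2 or L1 replicate 1 (-0.28 in both), and it stood at 10.19 ± 0.05 in L4 larvae. The genes deps-1 (-2.49 ± 0.11), hrde-1 (-2.46 ± 0.10) and him-3 (-2.82 ± 0.12) fell. Other hrde-1 probe sets changed by -2.69 and -0.35.

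The adult list, of 40 yolk and sperm genes with rol-6, col-19 and lin-29, was higher at L1 in 39 of 43 cases, with a median of 1.01, or 0.73 without L1 replicate 1. Of the 40 yolk and sperm genes, which are made in later stages, 36 rose (median 0.996). The major sperm protein gene msp-19 read 4.92, 4.65 and 4.69 on the embryo arrays and 7.49, 6.99 and 6.71 on the L1 arrays, and 11.97 ± 0.05 in L4 larvae. It rose by 2.31 ± 0.19, or 2.1 without L1 replicate 1. These genes are close copies of each other, so their probe sets read a family rather than a gene. The yolk genes vit-6 (1.73 ± 0.20) and vit-5 (2.14 ± 0.41) rose as well, with the highest value on replicate 1. The part that adult animals or their RNA had in these values was not tested.

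Whether these changes are particular to the wild type was asked against lin-35(n745) embryos and L1 larvae, which share no arrays with N2, by the difference of the changes in 1 model. For the 4840 genes that changed at least 2-fold in N2, the change in lin-35(n745) had the same sign in 98.4% (4764), and over all 17118 genes the changes correlated at r = 0.93, as a description across genes that share probes and platform. The difference of the changes passed the test for 9.20% of probe sets (2074). Per gene, the change was higher in N2 for 754 (4.40%) and lower in N2 for 893 (5.22%).

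Many genes of cell division fell further in N2. In the DNA replication list the change was lower in N2 for 16 of 38 genes and higher for 0, with medians of -1.22 in N2 and -0.79 in lin-35(n745). In the mitosis list it was lower in N2 for 29 of 61 and higher for 0, with medians of -1.28 and -0.70. The difference was -1.18 ± 0.15 for mcm-7, -1.08 ± 0.14 for dut-1, -1.12 ± 0.14 for orc-5 and -0.98 ± 0.20 for zen-4. The germline list had 12 of 34 genes with a lower change in N2, among them him-3, a meiotic chromosome axis gene, which fell by 2.82 ± 0.12 log2 units in N2 and changed by 1.35 in lin-35(n745), and pgl-1 (-2.81 ± 0.16).

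The change was higher in N2 for 23 of 128 col collagens, 17 of 79 pharynx genes, 16 of 86 neuropeptide genes, 13 of 66 heat shock genes and 11 of 40 transthyretin-like genes. The largest difference was that of pud-3, a gene named for its protein's rise in daf-2 mutants, which read 4.57, 4.36 and 4.48 on the embryo arrays and 10.57, 10.42 and 10.19 on the L1 arrays in N2. It changed by 5.92 ± 0.15 in N2 and 0.82 in lin-35(n745), a difference of 5.10 ± 0.21 (adjusted p = 4.9e-12). Its relative pud-4 (4.28 ± 0.27), the ground-like gene grl-21 (4.59 ± 0.77) and the collagen col-39 (3.41 ± 0.44) came next with nspb-12 (3.55 ± 0.73). Without lin-35(n745) L1 replicate 2 the difference was 5.76 for grl-21, 3.95 for col-39 and 4.67 for nspb-12. For grl-21 the strains also differed in embryos, with mean levels of 7.53 in N2 and 10.04 in lin-35(n745), against 9.78 and 7.70 at L1. At the other end stood F26F2.4 (-5.06 ± 0.45), sdz-6 (-4.93 ± 0.63), ddn-1 (-4.59 ± 0.29), B0507.8 (-4.58 ± 0.41) and pals-6 (-4.52 ± 0.39). Their changes in lin-35(n745) ran from 4.37 to 5.51, while none of them passed the test in N2, where the changes ran from -0.57 to 0.45.

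**Figure D5:**
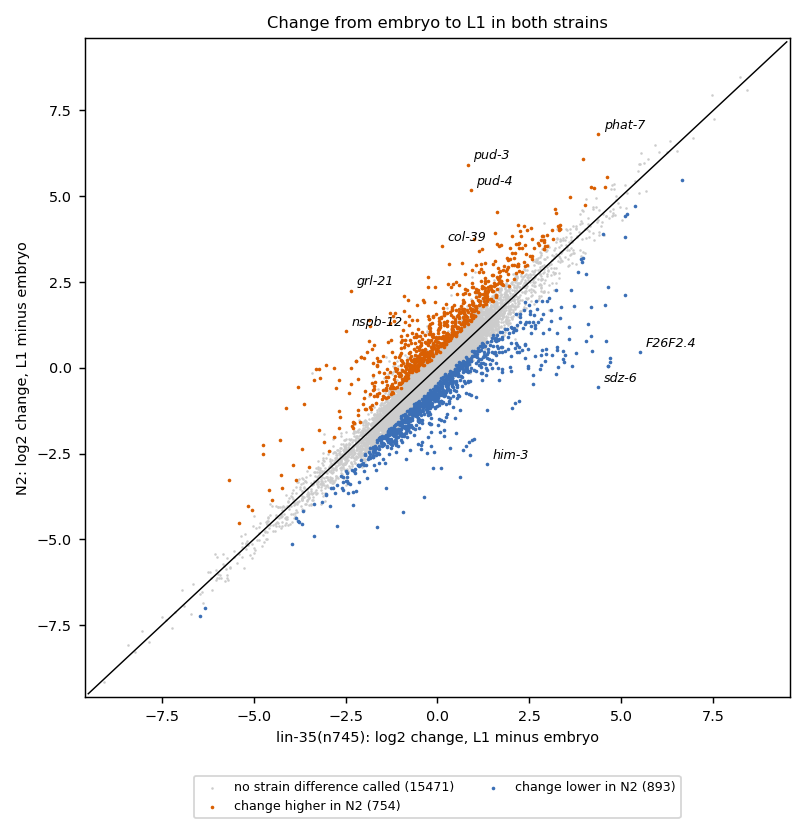
Log2 change from embryo to L1 in lin-35(n745) (horizontal axis) and in N2 (vertical axis) for 17118 genes, 3 arrays per stage and strain; orange and blue mark the 754 and 893 genes whose change was higher or lower in N2 by limma at adjusted p under 0.05. Most genes lie along the line of equal change, and pud-3, pud-4, grl-21 and col-39 lie far above it.

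By chromosome, the shares differed as a description without a test. On chromosome V 50.9% of 4317 genes rose and 23.2% fell (median change 0.28, and 0.24 without the chemoreceptor genes, many of which lie there). On chromosomes I and III more genes fell (41.4% and 41.3%) than rose (34.2% on each), with medians of -0.05 and -0.04. The X chromosome, where 42.1% rose and 34.4% fell, was close to the share over all genes.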

How the data were processed

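Total RNA of whole worms was hybridized to Affymetrix arrays, 1 per sample, with 2.5 µg per cDNA synthesis, per the labels' protocols. The deposited table holds 22625 probe sets on 18 arrays, made by the authors with RMA, per the submitters' processing notes; no version is given in these sources. The deposited values were read as log2, a base that no label states, since they run from 2.55 to 15.02. All value columns were used.

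Control probe sets (77) were left out, and 22548 were tested in limma 3.58.1 under R 4.3.3 (lmFit, eBayes) with 6 group means on all 18 arrays, two-sided, with Benjamini-Hochberg adjustment over all probe sets and a threshold of 0.05. The strain comparison was an interaction term in the same fit. Of the probe sets, 20766 name 1 gene, 887 several and 895 none in the platform annotation, and 20701 of the first were found in the RefSeq table of WBcel235. A gene was represented by its brightest such probe set over the 18 arrays, and 120 genes had probe sets called in opposite directions. The arrays of equal replicate number did not pair the samples, with correlations of their deviations of 0.080, -0.022 and 0.024.

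The genes and the 41 lists were chosen with earlier results of these data known, and the pattern for chemoreceptor names was corrected after the table was seen. Named are the 15 highest and 15 lowest genes among called genes whose arrays of both stages do not overlap. Their lack of overlap is thus fixed by the rule. Also named are up to 4 genes per list and direction, 21 landmark genes and the 5 largest strain differences at each end. The text gives a selection. No set test was made. On simulated data of 22548 probe sets, 36 of 80 changes of 0.5 log2 units, 77 of 80 of 1 and 40 of 40 of 2 were recovered. In the same run 11 unchanged probe sets were called, a share of 0.067 of all calls. No other probe sets were changed there, whereas 74.4% were called in the data. The recovery therefore need not hold for this comparison. Alternatives were leaving out each array, a replicate block, fewer arrays, median centring, quantile normalization, an intensity trend, a filter on dim probe sets, a test against a 2-fold change and means of a gene's probe sets. With 3 arrays per group, precision is limited by their number.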

Additional observations from a re-analysis of the deposited data

Results flagged for a closer look

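For 60 genes named above the change from embryo to L1 differed between N2 and lin-35(n745) by limma's interaction test at adjusted p under 0.05, and for 53 of them the measured change had the same sign in both strains, whether or not it passed the test in each. Each value below is the log2 change in N2 minus that in lin-35(n745), with 3 arrays per stage and strain.

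The change was higher in N2 for pud-3 (5.1), grl-21 (4.59), pud-4 (4.28), nspb-12 (3.55) and col-39 (3.41). Among pharynx genes it was higher for phat-7 (2.44) and phat-8 (1.75), and among transthyretin-like genes for ttr-26 (2.35) and ttr-27 (1.8). Epidermal and cuticle genes with a higher change were grd-14 (1.65), ptr-8 (1.3), mlt-7 (1.18), mup-4 (1.11) and grd-10 (0.861). Peptide genes were ins-30 (0.953), nlp-80 (0.902) and flp-4 (0.85). The chaperone genes hsp-16.41 (2.38), hsp-1 (0.742) and hsp-17 (0.58) were higher as well, as were clec-1 (0.984), fat-2 (0.823), rpl-11.1 (0.761) and nhr-97 (0.576). Without N2 L1 replicate 1, where yolk, sperm and eggshell genes were high, the difference was 1.07 for vit-4 (1.83 with it, adjusted p = 0.051 without), 1.06 for msp-19 (1.27 with it), 0.53 for cpg-1 (0.733 with it, adjusted p = 0.13 without) and 1.74 for hsp-16.41.

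The change was lower in N2 for F26F2.4 (-5.06), sdz-6 (-4.93), ddn-1 (-4.59), B0507.8 (-4.58) and pals-6 (-4.52). In germline genes it was lower for him-3 (-4.17), pgl-1 (-2.81), hrde-1 (-2.36) and glh-1 (-0.976). In genes of cell division it was lower for mcm-7 (-1.18), orc-5 (-1.12), dut-1 (-1.08), zen-4 (-0.979), cdk-1 (-0.855), cyk-4 (-0.834), cki-1 (-0.533) and cyb-3 (-0.529). Developmental regulators were ceh-22 (-0.898), hlh-14 (-0.795), let-413 (-0.71), elt-2 (-0.644), hbl-1 (-0.555) and sdc-2 (-0.54). The cilium genes kap-1 (-0.754) and bbs-5 (-0.733), the receptor genes str-173 (-0.844) and sru-20 (-0.647), skr-4 (-1.91), skr-13 (-0.76), cpr-5 (-0.684), gem-4 (-1.09), cyp-13B2 (-0.609) and dpy-7 (-0.522) made up the rest.

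Leaving out each of the 12 arrays of the comparison in turn, 49 of the 60 differences passed the test every time. The other 11 were cki-1, cpg-1, cyb-3, cyp-13B2, dpy-7, gem-4, hbl-1, hsp-17, nhr-97, sdc-2 and vit-4.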

How the results depend on the processing

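From embryo to L1 in N2, 9207 probe sets were higher and 7569 lower. Leaving out each of the 6 N2 arrays in turn gave 8542 to 8752 higher and 7237 to 7433 lower. A test against a 2-fold change called 1494 and 2558, a further condition of at least 2-fold left 2476 and 3747, and testing the 11274 probe sets above the median level called 3630 higher and 5402 lower. With a replicate block the counts were 9185 and 7569, after median centring 11061 and 6821, and after quantile normalization 7907 and 6971. The strain difference counted 984 probe sets higher in N2 and 1090 lower, 976 and 1071 with the replicate block, and 714 to 1271 and 816 to 1610 when each of the 12 arrays was left out, the highest pair without lin-35(n745) L1 replicate 2. Of 328 genes that the naming rule gives, 315 passed the test, and each of these kept its sign under every alternative in which it was fitted. Of the 13 that did not pass, 7 changed sign under at least 1 alternative, and of these only myo-3 then passed (from -0.00 to 0.29 after quantile normalization). Of the 315, the test against 2-fold called 220 and the replicate block 314. Of 82 counts over lists, quantile normalization moved 13 by over 1.5 times and the replicate block 0. Levels near background, a single platform and 3 arrays per stage limit all values. F26F2.4 (0.45, adjusted p = 0.00090) and sdz-6 (-0.57, adjusted p = 0.0030) passed in N2 when the 6 arrays of both stages were fitted alone.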

Other observations

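Cuticlin genes and collagens of the col family moved in opposite directions on balance, with median changes of -0.56 and 0.77. Within the collagens of the col family the change ran from -8.27 for col-74 to 8.49 for col-90. The change also went with the level. Over 4 bins of near-equal size, of genes ordered by mean level, from dim to bright, the median change was 0.27, 0.33, -0.25 and -0.16, and the share that fell at least 2-fold was highest in the third bin, at 26.3%. Probe sets of 120 genes were called in opposite directions, among them the glucuronosyltransferase gene ugt-50, whose representative changed by -2.26 ± 0.12 while another rose by 0.88, and the cuticlin-like gene cutl-9 (-3.87 ± 0.19 against a rise of 0.40).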
